A study of Mus musculus with 12 samples.

Results

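The smooth muscle and contractile genes followed here are 9 genes listed by symbol: Acta2, Tagln, Cnn1, Myl9, Tpm1, Tpm2, Actg2, Myh11 and Cald1. These genes were chosen with earlier results of these data known. All 9 were found among the 21001 genes with a value in at least 1 library. They were measured by RNA sequencing in sorted GFP-BMSCs, mouse cells labelled as bone marrow stem cells that carry a green fluorescent protein, which were frozen before the RNA was taken. Every group is of the C57BL/6 strain and has the genotype entry "wide type", and each has 3 libraries. NC is the marked cells kept in primary culture. HOMING is marked cells taken back from the marrow of mice that had been given these cells alone, under the skin. BM is marked cells taken from the marrow of mice that carried a tumour because cells named RFP-LLCs had been injected together with the marked cells. TUMOR is marked cells taken from the injection site of such co-injected mice. The labels give no age of the mice and no sorting gate. They also do not say whether replicates came from different mice or dishes, so a p-value measures the spread between these libraries, which may be technical.

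Contraction in smooth muscle and in myofibroblasts rests on actin filaments that slide along myosin. Tropomyosin and caldesmon lie along the actin filament and regulate its access to myosin, and phosphorylation of the myosin regulatory light chain switches the motor on. Many of these genes are controlled by serum response factor (SRF), which binds the CArG box in their promoters together with myocardin or the myocardin-related factors MRTF-A and MRTF-B. Marrow stromal cells grown on plastic commonly switch on part of this programme, and Acta2 and Tagln are its usual markers.

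Promoters are shown for 3 members that behaved differently: Acta2, the most abundant of the members that fell in every recovered group, Myl9, the member called in BM against each other group, and Tpm1, the most abundant member, which did not reach a 2-fold change in any comparison. They are the 250 bases before the RefSeq start in build GRCm38.p6, read 5′ to 3′ on the gene's strand. Acta2 is at chr19:34255374-34255623 (minus strand), Myl9 at chr2:156775214-156775463 (plus strand) and Tpm1 at chr9:67049214-67049463 (minus strand). Capitals mark CArG boxes, CArG-like boxes and MCAT elements.
Acta2: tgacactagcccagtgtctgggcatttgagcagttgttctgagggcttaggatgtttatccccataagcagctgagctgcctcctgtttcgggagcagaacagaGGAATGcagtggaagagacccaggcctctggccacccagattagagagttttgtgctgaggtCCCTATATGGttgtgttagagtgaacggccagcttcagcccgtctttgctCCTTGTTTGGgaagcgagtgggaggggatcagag
Myl9: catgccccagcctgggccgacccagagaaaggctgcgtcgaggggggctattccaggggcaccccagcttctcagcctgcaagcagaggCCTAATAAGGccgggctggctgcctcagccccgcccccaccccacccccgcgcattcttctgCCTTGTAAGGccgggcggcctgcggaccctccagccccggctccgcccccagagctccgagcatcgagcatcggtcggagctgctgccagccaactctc
Tpm1: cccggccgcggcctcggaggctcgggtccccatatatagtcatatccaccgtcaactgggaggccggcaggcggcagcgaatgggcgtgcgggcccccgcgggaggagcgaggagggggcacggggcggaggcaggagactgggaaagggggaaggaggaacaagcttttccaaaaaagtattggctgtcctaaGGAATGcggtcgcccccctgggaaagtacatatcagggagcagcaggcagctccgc

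The RefSeq table held 7 promoters for 6 of the 9 members, with none for Tagln, Actg2 and Myh11. Both strands were searched for the CArG box (CC, 6 letters that are A or T, then GG), for a CArG-like box in which exactly 1 of these 6 letters is G or C, for the MCAT element CATTCC, which binds TEAD factors, and for the TATA box TATAAA. The CArG-like form was added after the member promoters had been seen. An exact CArG box lay in 1 of the 7 member promoters, that of Myl9 at 161 to 152 bases before the start, and in 1.47% of the 32851 promoters of the table. CArG-like boxes lay in 2 of the 7, those of Acta2 (84 to 75 and 34 to 25 bases before the start) and Myl9 (99 to 90 bases), and in 7.24% of all promoters. MCAT elements lay in 3 of the 7, those of Acta2, Tpm1 and 1 of the Cald1 promoters, and in 12.6% of all promoters. A TATA box lay in 1 of the 7, the other Cald1 promoter, and in 12.4% of all promoters. These are matches of letters in a short window and no measurement of binding.

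Levels are given in FPKM, a fragment count divided by transcript length and by library depth, as mean ± SD with n = 3 libraries per group, so genes can be compared per length. Differences are log2 fold changes ± SE fitted with edgeR, and a positive value means more in the first group of a pair. A gene was called, and is said to rise or fall, at a p adjusted over all 12314 tested genes under 0.05 and a change of at least 2-fold. Tested genes reached 1 FPKM in at least 3 libraries, and 7 of the 9 members passed: Actg2 and Myh11 did not.

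Of the 7 tested contractile genes, 3 to 5 fell in each group of recovered cells against culture. Acta2, Tagln and Cnn1 fell in each of the 3 groups of recovered cells against NC, Myl9 fell in HOMING and BM, and Tpm2 fell in BM. Tpm1 and Cald1, which belong to the actin filament of many cell types, did not reach a 2-fold change in any group. Against NC, 4 of the 7 tested members were called lower in HOMING, where 4.69% of all tested genes were called lower, 5 of 7 in BM, where 3.57% were, and 3 of 7 in TUMOR, where 6.65% were. In these comparisons 0 of 7 members were called higher, beside 9.64%, 7.93% and 9.75% of all tested genes in HOMING, BM and TUMOR. The median log2 change of the 7 was -1.17 in HOMING, -1.59 in BM and -0.93 in TUMOR, while the median over all tested genes was 0.01, 0.02 and 0.01. The 3 comparisons share the NC libraries, so they are not independent of each other. Because the members were chosen with earlier results of these data known, these counts beside the shares over all genes are a description and no independent test.

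**Figure D1:**
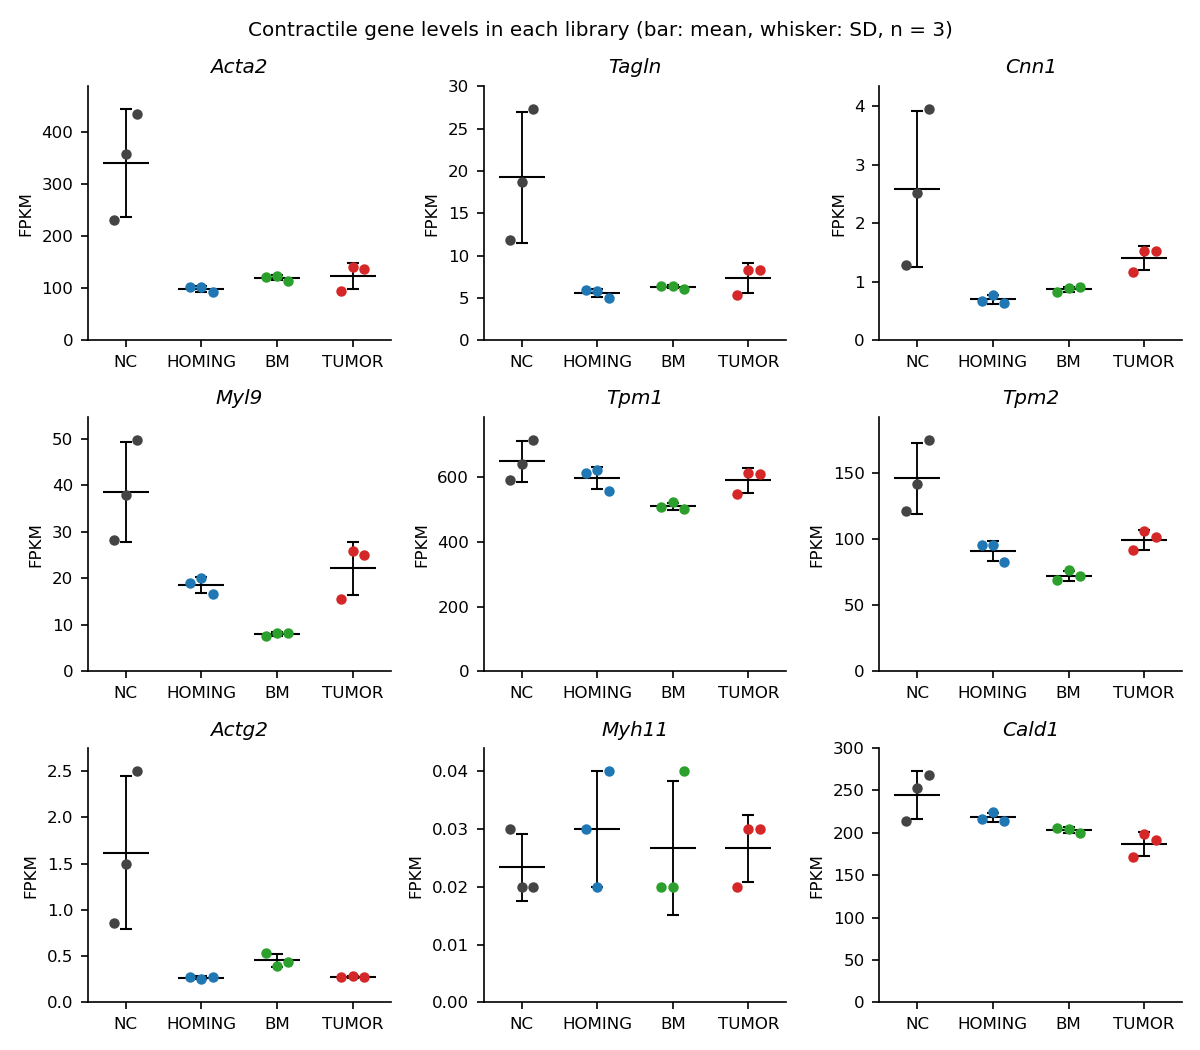
FPKM (vertical axis, starting at 0) of each of the 9 genes in the 4 groups. Points are libraries, the horizontal bar is the mean and the whisker the SD (n = 3). Acta2, Tagln, Myl9, Tpm2 and Actg2 lie higher in all 3 NC libraries than in every other library, and Myl9 is lowest in the 3 BM libraries.

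Acta2 (Entrez 11475) encodes smooth muscle alpha-actin, the usual marker of myofibroblasts. It stood at 230.64, 357.38 and 435.3 FPKM in NC, at 102.05, 103.44 and 93.05 in HOMING, at 122.57, 123.96 and 114.43 in BM, and at 94.59, 140.74 and 136.84 in TUMOR. Every NC library was thus above every library of recovered cells, and among recovered cells the BM libraries lay above HOMING while TUMOR overlapped both. Acta2 fell by 1.89 ± 0.20 on the log2 scale in HOMING (adjusted p 2.47e-06), by 1.59 ± 0.20 in BM (adjusted p 1.64e-05) and by 1.59 ± 0.20 in TUMOR (adjusted p 9.54e-06). As a ratio of mean FPKM, NC was 3.43 times HOMING, 2.83 times BM and 2.75 times TUMOR. Among recovered cells, no difference in Acta2 was called: log2 0.30 ± 0.19 for BM against HOMING (adjusted p 0.196), 0.30 ± 0.19 for TUMOR against HOMING (adjusted p 0.1998) and 0.00 ± 0.19 for TUMOR against BM (adjusted p 0.9998).

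Tagln (Entrez 21345) encodes transgelin, also known as SM22, an actin-bundling protein of smooth muscle. It stood at 11.89, 18.66 and 27.32 FPKM in NC, at 5.98, 5.82 and 5.01 in HOMING, at 6.48, 6.42 and 6.13 in BM, and at 5.33, 8.37 and 8.36 in TUMOR. The lowest NC library was again above every library of recovered cells. Tagln fell by 1.90 ± 0.25 on the log2 scale in HOMING, by 1.69 ± 0.25 in BM and by 1.52 ± 0.25 in TUMOR, with adjusted p of 2.22e-05, 7.47e-05 and 0.000114. Its level was far below that of Acta2 in every group, 19.3 ± 7.73 against 341 ± 103 FPKM in NC.

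Cnn1 (Entrez 12797) encodes calponin 1, an actin-binding protein that inhibits the myosin ATPase and marks differentiated smooth muscle. It was low, at 1.29, 2.52 and 3.95 FPKM in NC, 0.68, 0.78 and 0.64 in HOMING, 0.82, 0.89 and 0.91 in BM, and 1.17, 1.52 and 1.53 in TUMOR. The lowest NC library lay within the range of TUMOR and above the other recovered cells. Cnn1 fell by 2.002 ± 0.323 on the log2 scale in HOMING (adjusted p 0.000113), by 1.65 ± 0.32 in BM (adjusted p 0.000529) and by 1.01 ± 0.30 in TUMOR (adjusted p 0.00921). The call in TUMOR lay at the 2-fold minimum and ended without NC replicate 3 (log2 -0.55, adjusted p 0.0550) and without TUMOR replicate 1 (log2 -0.90, adjusted p 0.0364). In TUMOR against HOMING the Cnn1 difference of log2 0.99 ± 0.33 (adjusted p 0.0215) was just under the minimum, and passed it at 1.08 without HOMING replicate 2 and at 1.101 without TUMOR replicate 1.

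Actg2 (Entrez 11468) encodes the gamma-actin of enteric smooth muscle. It stood at 0.86, 1.5 and 2.5 FPKM in NC, at 0.28, 0.25 and 0.27 in HOMING, at 0.53, 0.39 and 0.44 in BM, and at 0.27, 0.29 and 0.27 in TUMOR. NC lay above BM, and BM above HOMING and TUMOR, with no overlap. There were 283 expected counts over NC, 77 over BM, 45 over HOMING and 46 over TUMOR, so these levels rest on few reads. Actg2 was under the expression filter in the main test. In the test without that filter its log2 difference from NC was -2.73 ± 0.35 in HOMING (adjusted p 6.08e-06), -1.92 ± 0.32 in BM (adjusted p 0.000138) and -2.72 ± 0.34 in TUMOR (adjusted p 5.36e-06). The actins have nearly identical coding sequences, so reads of Acta2 and Actg2 can be shared between them and with the other actins.

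Myh11 (Entrez 17880), the smooth muscle myosin heavy chain and the most specific marker of mature smooth muscle among the members, was close to absent. The highest library reached 0.04 FPKM, and the lowest was at 0.02. Summed over 3 libraries it had 22 expected counts in NC, 27 in HOMING, 25 in BM and 23 in TUMOR. The exact 95% Poisson intervals, which cover counting error only, were 13.8 to 33.3, 17.8 to 39.3, 16.2 to 36.9 and 14.6 to 34.5 counts, so no difference in Myh11 was detectable at this depth. Myocd, the myocardin gene, had 0 counts in HOMING and at most a mean of 0.0233 ± 0.0153 FPKM, in BM. These defining markers of mature smooth muscle were thus near 0 in all 4 groups, while Acta2, Tpm1, Tpm2 and Cald1 were abundant.

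Myl9 (Entrez 98932) encodes a regulatory light chain of smooth muscle and non-muscle myosin, whose phosphorylation starts contraction. It stood at 28.23, 37.97 and 49.69 FPKM in NC, at 19.05, 19.99 and 16.54 in HOMING, at 7.56, 8.15 and 8.32 in BM, and at 15.56, 25.83 and 25.06 in TUMOR. The BM libraries were below all others, and HOMING and TUMOR overlapped. Myl9 fell by 2.35 ± 0.22 on the log2 scale in BM against NC (adjusted p 1.36e-06) and by 1.17 ± 0.20 in HOMING against NC (adjusted p 0.00020), while TUMOR against NC was at log2 -0.93 ± 0.20 (adjusted p 0.00103), short of the 2-fold minimum. The HOMING value was no longer called without NC replicate 3 (-0.94) or with limma, an alternative fit, on log2(FPKM + 1) (-0.99). TUMOR passed the minimum without NC replicate 1 (log2 -1.12), without TUMOR replicate 2 (-1.05) and without TUMOR replicate 3 (-1.03).

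Myl9 was the member called between groups of recovered cells. It fell in BM against HOMING by 1.18 ± 0.22 on the log2 scale (adjusted p 0.000513) and rose in TUMOR against BM by log2 1.42 ± 0.22 (adjusted p 7.76e-05). In BM against HOMING, 1 of 7 tested members was called lower, where 6.68% of all tested genes were, and 0 were called higher, where 3.71% were. In TUMOR against BM, 1 of 7 was called higher, where 6.95% were, and 0 were called lower, where 7.28% were. In TUMOR against HOMING, 0 of 7 were called in either direction, beside 4.42% of all tested genes called higher and 6.37% called lower. With 7 tested members, 1 call does not stand apart from these shares as a count. The comparisons share libraries: the low BM values of Myl9 enter both of its calls. The median log2 change of the 7 members was -0.10 in BM against HOMING, 0.17 in TUMOR against BM and 0.24 in TUMOR against HOMING.

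**Figure D2:**
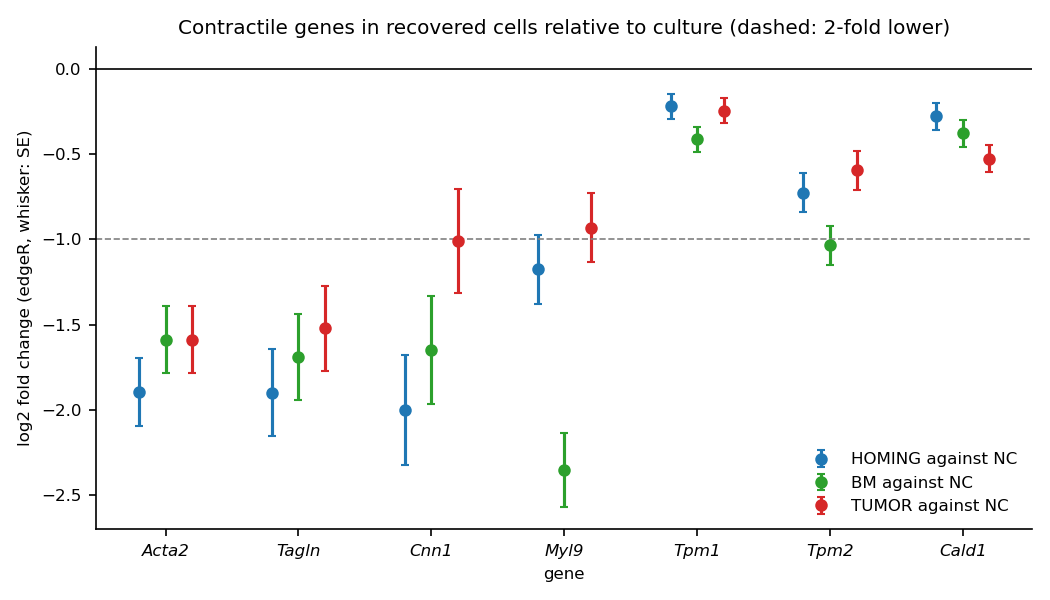
Log2 fold change of the 7 tested genes (vertical axis; 0 is no change and the dashed line a 2-fold fall) in HOMING, BM and TUMOR against NC; whiskers are the SE from edgeR. Acta2, Tagln and Cnn1 lie on or below the line in all 3 groups, Myl9 is lowest in BM at -2.35, and Tpm1 and Cald1 lie between -0.22 and -0.53.

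Tpm2 (Entrez 22004) encodes beta-tropomyosin of muscle and stromal cells. It stood at 121.49, 141.8 and 174.74 FPKM in NC, at 95.52, 95.4 and 82.29 in HOMING, at 68.77, 76.41 and 71.77 in BM, and at 91.36, 105.88 and 101.28 in TUMOR. NC was above all other libraries and BM below them. Tpm2 fell by 1.04 ± 0.12 on the log2 scale in BM against NC (adjusted p 7.23e-06). This call lay near the 2-fold minimum and ended under 5 alternative settings, among them at -0.87 without NC replicate 3. The differences of -0.73 ± 0.12 in HOMING and -0.60 ± 0.12 in TUMOR were past the p threshold (adjusted p 0.000101 and 0.000447) but under 2-fold.

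Tpm1 (Entrez 22003), the alpha-tropomyosin gene, was the most abundant member in every group, at 648 ± 62.2 FPKM in NC, 597 ± 34.9 in HOMING, 510.3 ± 11.05 in BM and 590 ± 37.9 in TUMOR. The libraries ran from 501.12 in BM to 713.83 in NC, and BM did not overlap any other group. Its log2 difference from NC was -0.22 ± 0.07 in HOMING, -0.41 ± 0.07 in BM and -0.24 ± 0.07 in TUMOR, with adjusted p of 0.0188, 0.000358 and 0.0101, each well under 2-fold. With counts scaled by library size alone, the Tpm1 differences in HOMING (-0.11, edgeR adjusted p 0.191) and TUMOR (-0.12, adjusted p 0.144) missed the p threshold. The difference in BM (-0.33, edgeR adjusted p 0.00115) still passed it. Cald1 (Entrez 109624), which encodes caldesmon, was at 245 ± 28.0 FPKM in NC, 218 ± 5.57 in HOMING, 204 ± 3.29 in BM and 187 ± 14.3 in TUMOR, from 170.99 in the lowest TUMOR library to 268.12 in the highest NC library. Its log2 difference from NC was -0.28 ± 0.08, -0.38 ± 0.08 and -0.53 ± 0.08, with adjusted p of 0.00702, 0.00104 and 5.48e-05, again under 2-fold. With library size scaling the Cald1 difference in HOMING (-0.16, edgeR adjusted p 0.0672) missed the p threshold, while those in BM and TUMOR still passed it.

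The order of levels per length changed with these shifts. In NC the order was Tpm1, Acta2, Cald1, Tpm2, Myl9, Tagln, Cnn1, Actg2 and Myh11. In the 3 recovered groups Cald1 stood above Acta2: 218 ± 5.57 against 99.5 ± 5.64 FPKM in HOMING, 204 ± 3.29 against 120.3 ± 5.15 in BM and 187 ± 14.3 against 124 ± 25.6 in TUMOR. Acta2 and Cald1 overlapped in NC, and Acta2 and Tpm2 overlapped in HOMING (93.05 to 103.44 and 82.29 to 95.52 FPKM) and in TUMOR. In each group every value of the 4 abundant genes lay above every value of Myl9.

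Libraries of a group also differed among themselves in these genes. NC replicate 3 was the highest NC library for 8 of the 9 members and NC replicate 1 the lowest for 8 of 9, while over all tested genes replicate 3 was highest for 32.4% and replicate 1 lowest for 30.2%. Acta2 counts were 26456, 40810 and 50209 in the 3 NC libraries. The coefficient of variation in NC was 30.3% for Acta2, 40.1% for Tagln, 51.5% for Cnn1 and 27.8% for Myl9, against 9.60% for Tpm1 and 11.5% for Cald1. For Acta2 it was 5.67% in HOMING, 4.28% in BM and 20.6% in TUMOR, where Tagln had 23.8% and Myl9 25.8%. TUMOR replicate 1 was the lowest TUMOR library for 9 of 9 members, for Actg2 in a tie with replicate 3 at 0.27 FPKM, and was lowest for 44.7% of all tested genes.

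Tropomyosin genes make many transcripts, and their estimates are given as values without a test, since transcripts of a gene share most of their sequence. Tpm1 was listed with 11 transcripts. NM_024427 made 60.0 ± 4.53% of Tpm1 FPKM in NC, 59.1 ± 2.47% in HOMING, 46.0 ± 2.44% in BM and 60.7 ± 1.33% in TUMOR, and NM_001164252 made 15.9 ± 3.45%, 15.98 ± 1.53%, 26.4 ± 3.83% and 11.8 ± 0.716%. Each BM library thus had a smaller share of the first and a larger share of the second than every other library. In FPKM NM_024427 stood at 391 ± 65.5 in NC and 235 ± 13.7 in BM, and NM_001164252 at 102 ± 13.8 and 135 ± 19.2. When only NM_024427, the leading transcript, stood for Tpm1, its log2 difference in BM against NC was -0.81 in place of -0.41, and in BM against HOMING -0.57 in place of -0.19.

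Tpm2 was listed with 3 transcripts that moved differently. NM_001277875 stood at 98.2 ± 20.1 FPKM in NC and 54.6 ± 4.57, 46.6 ± 2.90 and 57.2 ± 6.12 in HOMING, BM and TUMOR, and NM_001277876 at 38.3 ± 5.77 and 22.2 ± 1.75, 15.1 ± 0.942 and 24.7 ± 0.490. NM_009416 stood at 9.54 ± 1.78 in NC and at 14.2 ± 1.46, 10.6 ± 0.271 and 17.5 ± 0.938, so its mean was not lower in any recovered group. Its share of Tpm2 FPKM was 6.54 ± 0.324% in NC, 15.6 ± 0.655% in HOMING, 14.7 ± 0.801% in BM and 17.7 ± 0.629% in TUMOR, with no overlap between NC and any other group. Estimates of minor transcripts were unstable: the Cald1 transcript BGI_novel_T009255 was listed at 0, 1.24 and 22.42 FPKM in the 3 NC libraries. The leading Cald1 transcript NM_145575 held 71.9 ± 0.796% of Cald1 FPKM in NC, 73.0 ± 0.927% in HOMING, 78.9 ± 0.766% in BM and 74.9 ± 0.545% in TUMOR.

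**Figure D3:**
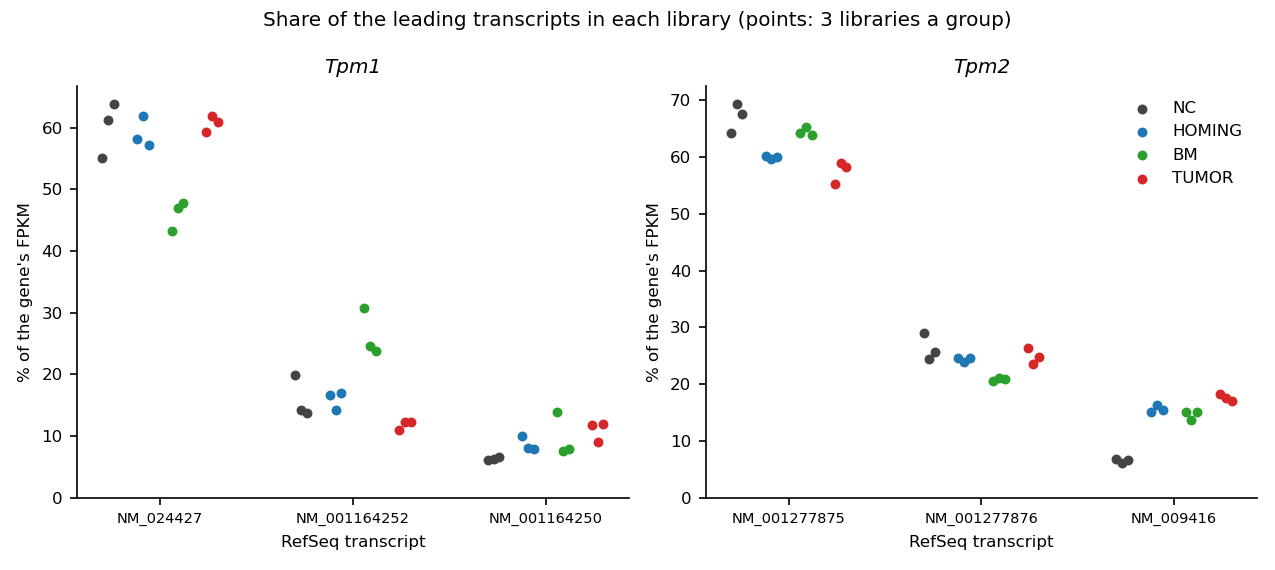
Share of a gene's FPKM (vertical axis, percent) held by the 3 leading transcripts of Tpm1 and of Tpm2; each point is a library, coloured by group. The BM libraries lie lowest for NM_024427 and highest for NM_001164252, and the NC libraries lie lowest for NM_009416.

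Within their gene families, the smooth muscle forms took a smaller mean share in recovered cells. Acta2 made 7.94 ± 1.86% of the summed FPKM of the 6 actin genes in NC, 2.03 ± 0.0515% in HOMING, 4.49 ± 0.316% in BM and 3.20 ± 0.297% in TUMOR, and no 2 of the groups overlapped. The sum itself differed by group, at 3930 to 4597 FPKM in NC, 4687 to 5026 in HOMING, 2634 to 2770 in BM and 3303 to 4120 in TUMOR. The abundant cytoplasmic actin gene Actb, which enters this sum, stood at 2714 ± 207 FPKM in HOMING, 1474 ± 129 in BM and 2160 ± 255 in TUMOR. Tpm2 made 11.9 ± 0.819% of the 4 tropomyosin genes in NC, 8.07 ± 0.421% in HOMING, 7.52 ± 0.326% in BM and 8.62 ± 0.554% in TUMOR. Tpm1 held 53.2 ± 1.03% in NC, 52.9 ± 1.39% in HOMING, 53.1 ± 0.375% in BM and 51.1 ± 2.79% in TUMOR, with overlap between NC and each other group. Cnn1 was a small part of the 3 calponin genes throughout, at 0.906 ± 0.342% in NC, 0.197 ± 0.0142% in HOMING, 0.373 ± 0.0115% in BM and 0.413 ± 0.0108% in TUMOR. Tagln made 5.44 ± 1.87% of the 3 transgelin genes in NC, 1.89 ± 0.229% in HOMING, 1.94 ± 0.0567% in BM and 3.18 ± 0.902% in TUMOR, where it overlapped NC. Myl9 made 6.00 ± 1.33% of the 3 regulatory light chain genes in NC, 3.75 ± 0.223% in HOMING, 1.86 ± 0.0454% in BM and 4.72 ± 0.984% in TUMOR, where it also overlapped NC. These ratios show unequal change within a family and not which gene of it changed.

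**Figure D4:**
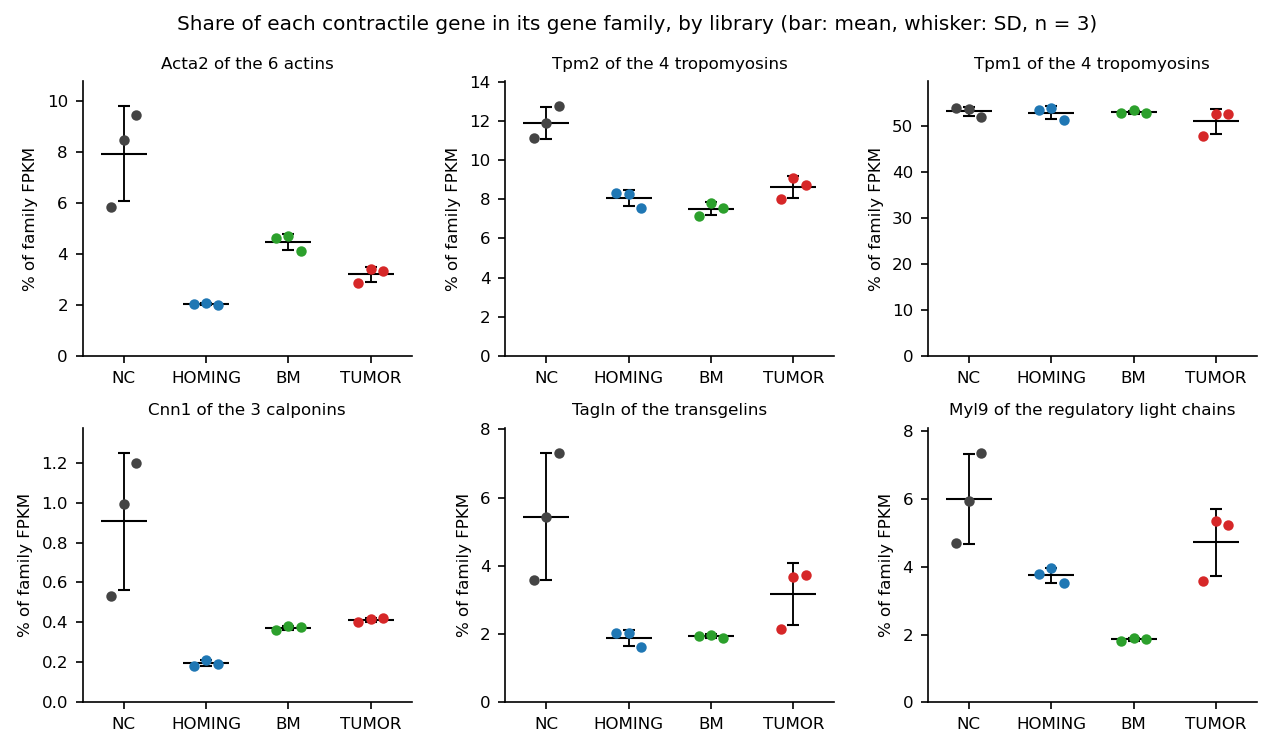
Share of a contractile gene in the summed FPKM of its gene family (vertical axis, percent, starting at 0); points are libraries, bars means and whiskers SD (n = 3). Acta2, Tpm2 and Cnn1 are highest in NC, Myl9 is lowest in BM at 1.86%, and Tpm1 holds about the same share in all groups.

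Of 24 other contractile and adhesion genes of smooth muscle 15 were tested, and 9 were not, among them Des and Lmod1. In HOMING against NC 1 of 15 was called higher and 1 lower, in BM 1 and 2, and in TUMOR 2 and 2, with medians of -0.13, -0.32 and -0.24. Over all tested genes 9.64% were called higher and 4.69% lower in HOMING, 7.93% and 3.57% in BM, and 9.75% and 6.65% in TUMOR, and these shares are the background for each gene list that follows. The LIM-domain gene Fhl1 fell from 6.59 ± 2.89 FPKM in NC to 1.00 ± 0.0529 in HOMING (log2 -2.81 ± 0.29), 0.887 ± 0.0850 in BM (-2.99 ± 0.29) and 0.960 ± 0.271 in TUMOR (-2.91 ± 0.29). Pdlim5, which encodes a scaffold protein of the actin cytoskeleton, fell from 46.4 ± 7.95 to 19.8 ± 0.536 FPKM in BM (log2 -1.33 ± 0.11), and was also called lower in TUMOR. Mylk, the myosin light chain kinase gene whose product phosphorylates the Myl9 protein, rose in TUMOR from 0.207 ± 0.0208 to 1.17 ± 0.266 FPKM (log2 2.36 ± 0.18, adjusted p 9.76e-08) and stood at 0.210 ± 0.0265 in BM. Mylk was under 1 FPKM in NC and BM and passed the filter only through libraries where it was high, so the filter favoured this call. Smoc1, which encodes a secreted matrix protein rather than a part of the contractile apparatus, was the riser in HOMING and BM and also rose in TUMOR, from 0.02 ± 0.01 to at most 2.02 ± 0.873 FPKM. Smoc1 was near 0 in NC and passed the filter only through recovered libraries, so the filter favoured its calls against NC. Mylk and Smoc1 made all the higher calls of this list against NC, so these counts are no support for a rise. Cnn2, a calponin of many cell types, fell in BM against HOMING from 236 ± 15.4 to 94.3 ± 2.97 FPKM (log2 -1.29 ± 0.16). In this comparison 1 of 15 genes was called higher and 1 lower, beside 3.71% and 6.68% of all tested genes. These counts do not stand apart from those shares.

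Of 14 tested genes of SRF and its partners 0 were called higher in any recovered group against NC, and 1 was called lower in HOMING, 0 in BM and 2 in TUMOR, counts too small to set apart from the shares over all genes. Srf stood at 32.8 ± 3.08 FPKM in NC, 46.5 ± 0.398 in HOMING, 34.2 ± 1.09 in BM and 35.8 ± 1.51 in TUMOR, and its coactivator gene Mrtfa at 32.9 ± 0.376, 28.1 ± 0.875, 32.1 ± 1.90 and 30.5 ± 0.754; both genes were chosen after their values were seen. Klf4, which encodes a repressor of smooth muscle genes, fell from 43.4 ± 3.81 FPKM in NC to 10.97 ± 0.143 in HOMING (log2 -2.10 ± 0.07) and 15.6 ± 0.843 in TUMOR (log2 -1.60 ± 0.07), and was at 42.7 ± 1.15 in BM.

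Of 15 actin, tropomyosin and myosin genes of non-muscle cells 1, 0 and 1 were called higher and 0, 0 and 1 lower in HOMING, BM and TUMOR against NC, beside the shares over all genes given above. Tpm3 rose in TUMOR from 54.3 ± 3.73 to 170 ± 43.7 FPKM (log2 1.53 ± 0.15) and the myosin heavy chain gene Myh10 fell there from 48.5 ± 4.34 to 25.9 ± 4.27 FPKM (log2 -1.03 ± 0.10), while the actin monomer-binding gene Tmsb4x rose in HOMING from 156 ± 48.5 to 367 ± 32.5 FPKM (log2 1.12 ± 0.19). Among 20 skeletal and cardiac muscle genes 17 had a value and 3 were tested, of which Mylpf was called higher in each recovered group against NC and 0 were called lower. The summed level of these 17, Mylpf included, was 7.66 to 10.3 FPKM in NC and 6.41 to 11.7 FPKM in the other groups, so the Mylpf calls were made at a low level. Mural cells around vessels also express Acta2, and of their 10 markers 6 were tested: 1 was called higher in each recovered group against NC, and 4, 2 and 3 were called lower in HOMING, BM and TUMOR. The marker that rose was Anpep, an aminopeptidase gene, from 0.263 ± 0.0493 FPKM in NC to 3.18 ± 1.03 in HOMING (log2 3.57 ± 0.27), 1.87 ± 0.251 in BM (2.81 ± 0.27) and 2.33 ± 0.569 in TUMOR (3.12 ± 0.27). Anpep passed the filter only through recovered libraries, so the filter favoured these calls too. Mcam fell from 12.5 ± 1.58 FPKM to 2.84 ± 0.244 in HOMING (log2 -2.25 ± 0.12), 2.86 ± 0.161 in BM (-2.20 ± 0.12) and 4.71 ± 0.841 in TUMOR (-1.53 ± 0.12), and Cspg4, which encodes NG2, fell from 7.22 ± 2.16 to 1.87 ± 0.192 in BM (-2.04 ± 0.19) and 2.36 ± 0.349 in TUMOR (-1.74 ± 0.18). Cspg4 was also called lower in HOMING.

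The libraries are bulk samples, so fewer cells of a type and less RNA per cell cannot be told apart. Library totals were 43232145 to 46166519 expected counts. Of the other cell types, the 16 leukocyte markers summed to 3.14 to 4.74 FPKM in NC, 1969 to 2922 in HOMING, 79.1 to 87.9 in BM and 3.14 to 5.34 in TUMOR, and 9 measured red cell markers to 0.38 to 0.9, 2108 to 3472, 3.06 to 3.55 and 1.37 to 2.26. Platelets and megakaryocytes, which also use Myl9 and tropomyosins, had 10 markers that summed to 1.89 to 2.31 FPKM in NC, 32.5 to 47.0 in HOMING, 5.50 to 6.90 in BM and 3.03 to 4.06 in TUMOR. Epithelial markers, 12 in number, summed to 2.32 to 4.59, 6.14 to 6.62, 6.45 to 7.10 and 70.1 to 115 FPKM, and 10 endothelial markers to 3.38 to 4.06, 5.31 to 6.96, 4.70 to 4.96 and 6.53 to 9.39. Markers at 0 in a group were Cd52, Mpo, Slc4a1, Epb42, Gp6, Epcam, Krt14 and Sftpc in NC, Sftpc in HOMING, Epb42, Emcn and Krt5 in BM, and Mpo, Hbb-bt, Gp6, Tubb1 and Sftpc in TUMOR. The 16 mesenchymal stromal markers summed to 923 to 1080 FPKM in NC, 771 to 808 in HOMING, 919 to 944 in BM and 771 to 901 in TUMOR. The stromal sum was thus below NC in HOMING and TUMOR and overlapped NC in BM, the leukocyte sum was above NC in HOMING and BM and overlapped it in TUMOR, and the epithelial sum was above NC in every recovered group. The part of these cell types in the differences of the contractile genes was not tested.

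The genes whose pattern over the 12 libraries was most like that of the 7 tested members together were found by Pearson's r on log2(FPKM + 1) with their mean z score, leaving out all genes of the lists. They were Bgn (r = 0.98), a matrix proteoglycan gene, Rasgrp3 (0.98), Ltbp1 (0.97), whose product binds latent TGF-beta, Bdnf (0.97) and Rras2 (0.96). Ltbp1 stood at 58.8 ± 16.8 FPKM in NC and 25.4 ± 1.93, 22.6 ± 0.803 and 27.2 ± 2.46 in HOMING, BM and TUMOR. Those most like Acta2 alone were Cd34 (0.99), Igfbp7 (0.98), Cap2 (0.98), which encodes an actin-binding protein, the metalloproteinase inhibitor gene Timp3 (0.98) and Sec14l1 (0.98). Cd34 stood at 171 ± 24.3 FPKM in NC and 94.3 ± 4.85, 100.4 ± 2.81 and 100.6 ± 14.4 in HOMING, BM and TUMOR, and Timp3 at 140 ± 21.3 and 34.6 ± 1.74, 46.3 ± 0.607 and 46.6 ± 6.87. These values of r rest largely on the gap between NC and the other groups, and are a description with no test.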

How the data were processed

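RNA was sequenced from 12 libraries, grouped by their titles. Reads were mapped with Bowtie 0.12.2 to build mm8, per the submitters' processing notes while the program that counted them was not given in the sources used here. In the deposited tables the authors give expected counts per transcript, not normalized, and FPKM, scaled by the authors to length and mapped fragments and rounded; both units follow the file headers. Transcripts not listed were set to 0, and values were summed per Entrez number (19629 of 19679 matched a symbol of the RefSeq table; 1322 genes had no number).

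Rounded expected counts, scaled by TMM, went into one quasi-likelihood fit over the 4 groups (edgeR 4.0.16 under R 4.3.3), with F-tests for 6 comparisons and Benjamini-Hochberg adjustment over 12314 genes. The procedure was checked on simulated data. Pairs of replicates differed by more than counting noise, and none was a copy. Alternatives used DESeq2 1.42.0 and limma 3.58.1. Tables and plots used Python 3.11.15, pandas 2.3.3 and matplotlib 3.10.9.

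The members and gene lists were chosen with earlier results of these data known. Named are all members and, from other lists, up to 3 called genes with the smallest adjusted p, or the 3 most abundant where none was called; the 5 genes most like a pattern were taken by Pearson's r. Fewer are printed, and 1 list is not reported here. Promoter sequences are from RefSeq, build GRCm38.p6.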

Additional observations from a re-analysis of the deposited data

How the results depend on the processing

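Of 960 log2 changes of members under alternatives, 924 kept their direction and their side of the threshold, 16 lost the call, 7 gained it and 13 turned their sign, all 13 among changes near 0 that were called under neither setting. Acta2 in TUMOR against BM turned from 0.0001 to -0.0030 with DESeq2, -0.0029 with median ratio scaling, -0.061 without the filter, -0.0022 with the compared groups alone, -0.025 with the replicate block, and ran from -0.095 to 0.16 as 1 library at a time was left out, below 0 without BM replicate 3, TUMOR replicate 2 or TUMOR replicate 3. Cald1 in BM against HOMING turned from -0.10 to 0.033 and Tpm1 in TUMOR against HOMING from -0.024 to 0.012 with the highest transcript per gene. Tpm1 there ran from -0.071 to 0.020 as 1 library at a time was left out, above 0 without HOMING replicate 1, HOMING replicate 2 or TUMOR replicate 1. The counts of called members that changed by over 1.5 times were these: with no minimum fold change, 3 lower in BM against HOMING, 7 lower in HOMING against NC, 7 lower in TUMOR against NC, 2 higher in TUMOR against BM, and 1 higher and 1 lower in TUMOR against HOMING; with limma on log2(FPKM + 1), 3 lower in BM against NC; and with library size scaling or a fit of the compared groups alone, 1 higher in TUMOR against HOMING. Leaving out 1 library at a time gave 0 to 1 members higher in that comparison, and 4 to 5, 3 to 4 and 2 to 4 members lower in BM, HOMING and TUMOR against NC. Library size scaling raised the median of all genes against NC to 0.10, 0.12 and 0.13 in BM, HOMING and TUMOR, and put 69.6% of called genes higher in TUMOR, against 59.4%; Tpm2 in BM (-0.95) and Cnn1 in TUMOR (-0.88) then lost their calls. The cause of each shift was not tested. Cnn1 in TUMOR against NC was the least stable call, and ended under 8 settings, with log2 values from -0.99 with the highest transcript per gene to -0.51 with limma on log2(FPKM + 1). Cnn1 had no value under the filter of 5 FPKM in 3 libraries.

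Same-numbered libraries of different groups did not deviate together: the correlation of their deviations from the group means ran from -0.12 to 0.22 over 18 pairs, and from -0.15 to 0.20 over 36 pairs with other numbers, and 5 of 12 libraries were most like their own number. With a replicate block, Cnn1 in TUMOR against NC was at -0.94 (edgeR, adjusted p 0.00702) and lost its call, leaving 2 members lower there, and no other member changed its call.

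Over all genes, counts called higher and lower moved by over 1.5 times in these cases. In BM against HOMING they were 457 and 823, became 828 and 1753 without the filter, 242 and 372 at 5 FPKM, 3608 and 3550 with no minimum fold change, and 227 higher with limma on log2(FPKM + 1). In BM against NC they were 977 and 439, then 1568 and 969, 500 and 200, 4238 and 3960, and 449 and 177. In HOMING against NC they were 1187 and 578, then 2253 and 1049, 615 and 343, 4361 and 4256, and 319 lower. In TUMOR against NC they were 1200 and 819, then 2071 and 1349, 661 and 510, 4577 and 4491, and 419 lower. In TUMOR against BM they were 856 and 896, then 1767 and 1395, 398 and 533, 4359 and 4217, and 476 and 454. In TUMOR against HOMING they were 544 and 785, then 1141 and 1561, 246 and 392, 3432 and 3344, and 331 higher.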
